A study of Canis lupus familiaris with 8 samples.

Results

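The 10 genes described here encode the core and accessory subunits of Polycomb repressive complex 2 (PRC2) in dog cells. They were taken by symbol from the deposited expression table, where each has 1 row of its own among 30424 listed genes. JuB2 is a hemangiosarcoma line, grown from a cancer of blood vessels in dogs, and 6 of the 8 libraries come from JuB2 cells with a hairpin. Of these, 3 expressed a scramble short hairpin RNA (shRNA) as control and 3 are labelled as KDM2B knockdown by shRNA. One further JuB2 library was untreated, and 1 library of untreated cells, labelled EC, has CnAOEC as its source and normal endothelial cell as its cell type. The hairpin groups are each from the same cell line, and no age, vector or culture condition is given in the sources used here. KDM2B is a histone demethylase that belongs to a variant form of Polycomb repressive complex 1, and the series concerns its role in this tumour.

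PRC2 places methyl groups on lysine 27 of histone H3, a mark of repressed genes. EZH1 or EZH2 carries the catalytic site, EED binds the finished mark, SUZ12 is the scaffold, and RBBP4 or RBBP7 contacts the histone. Accessory subunits define alternative forms of the complex: PHF1, MTF2 or PHF19, the Polycomb-like proteins, in one form, and JARID2 with AEBP2 in the other. EZH2 is known as a gene of dividing cells, while EZH1 is the form that persists in resting tissue.

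Values are TPM, transcript abundance scaled to a fixed total per library and thus a share of all transcripts corrected for transcript length, so levels of different genes can be set side by side. TPM keeps no read depth. Each library listed between 12639 and 13452 genes above 0, and the 13 mitochondrially encoded protein genes took 17.3% to 18.9% of the TPM in scramble, 11.3% to 12.6% in the libraries labelled KDM2B shRNA, 19.4% for untreated JuB2 and 11.6% for the library labelled EC. The labels do not say whether replicates were grown separately, so a p-value here reflects the spread among these samples alone, and that spread may be technical.

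The labels of KDM2B knockdown and of endothelial cells were checked against their own genes. KDM2B itself stood at 14.01, 15.01 and 12.89 TPM across the scramble libraries, against 20.88, 19.69 and 18.25 TPM across those labelled KDM2B shRNA. It was thus higher under the label of its own knockdown, by 0.46 ± 0.11 in log2(TPM + 1) (SE, limma adjusted p = 0.0101), and every direction below is that of the labelled libraries, not of a measured loss of KDM2B transcript. In the library labelled EC the endothelial genes PECAM1, VWF, TIE1 and ESAM were listed at 0, CDH5 stood at 0.64 TPM and ERG at 21.93 TPM, and 6 of 12 listed endothelial markers were under 1 TPM in all 8 libraries. The smooth muscle and fibroblast markers of the same library summed to 27308 TPM over 10 genes, against 876 TPM in untreated JuB2 and 1317 to 1369 TPM in scramble. Leukocyte markers with a row (5 of 7) summed to at most 0.76 TPM in any library, and the 2 epithelial markers with a row to at most 0.34 TPM. Other endothelial markers were present in it: FLT1 stood at 13.16 TPM, EMCN at 3.11 TPM and TEK at 2.38 TPM. Of the 6 endothelial markers that could be compared with untreated JuB2, 3 were at least 2-fold higher in it (ERG, EMCN and TEK) and 2 at least 2-fold lower (KDR and EGFL7). Untreated JuB2 itself listed PECAM1, VWF, TIE1, CDH5, TEK and EMCN at 0 and held ERG at 1.28 TPM. Its FLT1 stood at 12.81 TPM, EGFL7 at 11.37 TPM and KDR at 4.77 TPM. Since several defining endothelial genes were at 0 in the library labelled EC, that name is kept for it throughout.

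In every library, the histone-binding subunits RBBP4 and RBBP7 were the most abundant PRC2 transcripts, and in the means of both hairpin groups EZH1 and JARID2 were the least. In untreated JuB2 the lowest were JARID2, at 2.47 TPM, and PHF19, at 4.97 TPM. In scramble the order of mean levels was RBBP7, RBBP4, EZH2, EED, SUZ12, PHF1, MTF2, PHF19, EZH1 and JARID2, from 162 to 3.26 TPM. Neighbours in this order overlapped for RBBP7 and RBBP4, for EZH2 and EED, and for each step from MTF2 down to JARID2. In every scramble library RBBP4 stood above EZH2, EED above SUZ12, SUZ12 above PHF1 and PHF1 above MTF2. In the libraries labelled KDM2B shRNA, RBBP4 led RBBP7 without overlap, EZH2 stood clear of EED, and PHF1 had moved up to overlap both EED and SUZ12. RBBP4 and RBBP7 exceeded 92.7% and 93.3% of the genes above 0 in the scramble mean, while JARID2 exceeded 28.4% of them. Replicates of RBBP4 were the closest in scramble, with a coefficient of variation of 0.671% there and 2.34% under the KDM2B shRNA label. For JARID2 these were 12.1% and 27.7%, and for MTF2 20.7% and 9.04%.

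**Figure D1:**
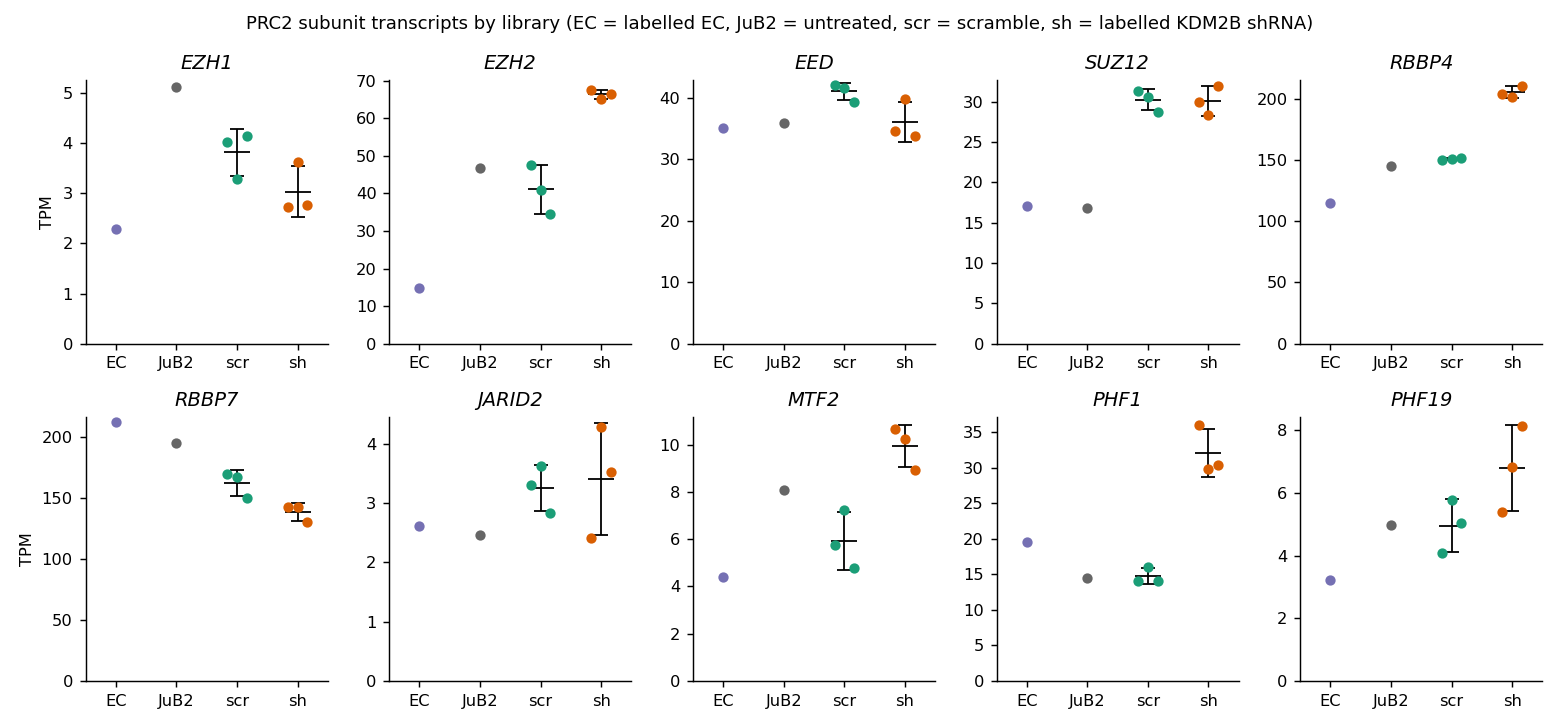
TPM (linear axis from 0, its range set per gene) of the 10 PRC2 genes in the library labelled EC, untreated JuB2, 3 scramble libraries and 3 libraries labelled KDM2B shRNA. Points are libraries, and the black bars give the mean and SD of the groups of 3. EZH2, RBBP4, MTF2 and PHF1 have all 3 labelled libraries above every scramble library, RBBP7 lies lower, and SUZ12 is near 17 TPM in the first 2 libraries and near 30 TPM in all 6 hairpin libraries.

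The comparison of the libraries labelled KDM2B shRNA with scramble asks what follows the labelled knockdown. Between them EZH2, RBBP4, MTF2 and PHF1 rose, RBBP7 fell, and EZH1, EED, SUZ12, JARID2 and PHF19 did not pass the test. All 10 genes passed the filter on low values, which asked for at least 1 TPM in 3 of the 6 libraries. The test was limma on log2(TPM + 1) across 11485 genes, with Benjamini-Hochberg adjusted p under 0.05 as the threshold. A call was common in this comparison: 50.9% of all tested genes passed, 33.3% as higher and 17.6% as lower, so 4 higher and 1 lower among 10 is near the background. For 5 of the 10 the libraries of one group all lay outside the range of the other, against 59.3% of all tested genes. The median difference was 0.21 for the 10 genes and 0.16 for all tested genes on the log2 scale. Trimmed-mean scaling, which aligns libraries on the log ratios left once the extremes are dropped, moved the median of all genes to 0.01. With it the same 4 genes rose and EED fell beside RBBP7, where 24.0% of all tested genes passed as higher and 24.5% as lower.

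EZH2, the catalytic subunit of dividing cells, stood at 47.72, 41.05 and 34.49 TPM across the scramble libraries, against 67.6, 65.21 and 66.61 TPM across those labelled KDM2B shRNA. All 3 labelled libraries lay above every scramble library, and they were closer to each other than the scramble libraries were (coefficient of variation 1.81% against 16.1%). Mean levels of 41.1 ± 6.62 and 66.5 ± 1.20 TPM (SD, n = 3 each) gave a difference of 0.69 ± 0.12 in log2(TPM + 1) (SE, limma adjusted p = 0.00206). Trimmed-mean scaling gave 0.54 ± 0.11 (limma adjusted p = 0.00557).

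EZH1, its paralog with weaker methyltransferase activity, was at 4.02, 3.29 and 4.15 TPM across the scramble libraries, against 2.72, 3.62 and 2.76 TPM across those labelled KDM2B shRNA. The groups overlapped, and the difference of -0.26 ± 0.19 on the log2 scale did not pass (SE, limma adjusted p = 0.288). EZH1 made up a small part of the catalytic transcripts in every library. The ratio of EZH2 to EZH1, which does not depend on scaling between libraries, was 11.9, 12.5 and 8.31 for scramble, against 24.9, 18.0 and 24.1 for the libraries labelled KDM2B shRNA. All 3 labelled libraries had the higher ratio, by 1.04 on the log2 scale (exact two-sided permutation p = 0.1, the smallest that 3 against 3 allows). Untreated JuB2 had a ratio of 9.14, within the scramble range, and the library labelled EC had the lowest, 6.46.

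EED, which reads the methyl mark, was at 42.05, 41.65 and 39.4 TPM across the scramble libraries, against 34.53, 39.76 and 33.86 TPM across those labelled KDM2B shRNA. One labelled library reached into the scramble range, and the difference of -0.19 ± 0.09 on the log2 scale did not pass (SE, limma adjusted p = 0.126). Relative to other genes it passed: trimmed-mean scaling gave -0.34 ± 0.09 (limma adjusted p = 0.0144). SUZ12, the scaffold, was at 31.32, 30.63 and 28.79 TPM across the scramble libraries, against 29.97, 28.32 and 32 TPM across those labelled KDM2B shRNA. These values overlapped throughout, with a difference of -0.0078 ± 0.089 (SE, limma adjusted p = 0.95), and -0.16 ± 0.09 with trimmed-mean scaling (limma adjusted p = 0.159).

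Ratios within a library set EZH2 beside EED and SUZ12. Its ratio to EED was 1.13, 0.986 and 0.875 for scramble, against 1.96, 1.64 and 1.97 for the libraries labelled KDM2B shRNA. The ratio to SUZ12 was 1.52, 1.34 and 1.20 for scramble, against 2.26, 2.30 and 2.08 for the libraries labelled KDM2B shRNA. Neither pair of groups overlapped, and as these ratios were chosen after their values were seen they were not tested. Untreated JuB2 held 1.30 for the first ratio, between the groups, and 2.78 for the second, above both.

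RBBP4, a histone-binding subunit that PRC2 shares with chromatin remodelling and deacetylase complexes, was at 150.16, 150.73 and 152.13 TPM across the scramble libraries, against 204.3, 201.91 and 211.2 TPM across those labelled KDM2B shRNA. The groups were far apart relative to their spread, with means of 151 ± 1.01 and 206 ± 4.82 TPM (SD, n = 3 each). The difference was 0.44 ± 0.05 in log2(TPM + 1) (SE, limma adjusted p = 0.000333) and 0.28 ± 0.05 with trimmed-mean scaling (limma adjusted p = 0.00343).

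RBBP7, the paralog that can take the same place, went the other way, from 169.17, 166.7 and 149.69 TPM in scramble to 142.24, 142.39 and 129.95 TPM in the labelled libraries. The highest labelled library lay below the lowest scramble library. The difference was -0.23 ± 0.07 in log2(TPM + 1) (SE, limma adjusted p = 0.0308). This call was lost with no intensity trend in the variance (adjusted p = 0.0773) and without any 1 of scramble library 1 (0.092), scramble library 2 (0.0913), labelled library 2 (0.0501) or labelled library 3 (0.0949), and its adjusted p over all alternatives ran from 0.002 to 0.0949. The ratio of RBBP7 to RBBP4 was 1.13, 1.11 and 0.984 for scramble, against 0.696, 0.705 and 0.615 for the libraries labelled KDM2B shRNA. It was lower in all 3 labelled libraries, by -0.67 on the log2 scale (exact two-sided permutation p = 0.1, the smallest possible here), and stood at 1.34 for untreated JuB2 and 1.84 for the library labelled EC. The sum of both genes ran from 302 to 319 TPM in scramble and from 341 to 347 TPM in the labelled libraries, with 340.2 TPM in untreated JuB2. These sums were not tested. They use TPM as deposited, where the median difference of all tested genes was 0.16 on the log2 scale.

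Assignment of reads shared by these paralog pairs is not given in the sources used here, nor whether strand was used in counting. In the reference gene table of another dog assembly (UU_Cfam_GSD_1.0), which matched 9 of the 10 genes by symbol, other genes overlap EED, RBBP4, JARID2 and PHF19. Of those that overlap RBBP4, ZBTB8OS was at 21.41 to 40.36 TPM and SYNC at 2.76 to 6.18 TPM over the 6 hairpin libraries, and neither passed the test (limma adjusted p = 0.0996 and 0.72). Their part in the value of RBBP4 was not tested.

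**Figure D2:**
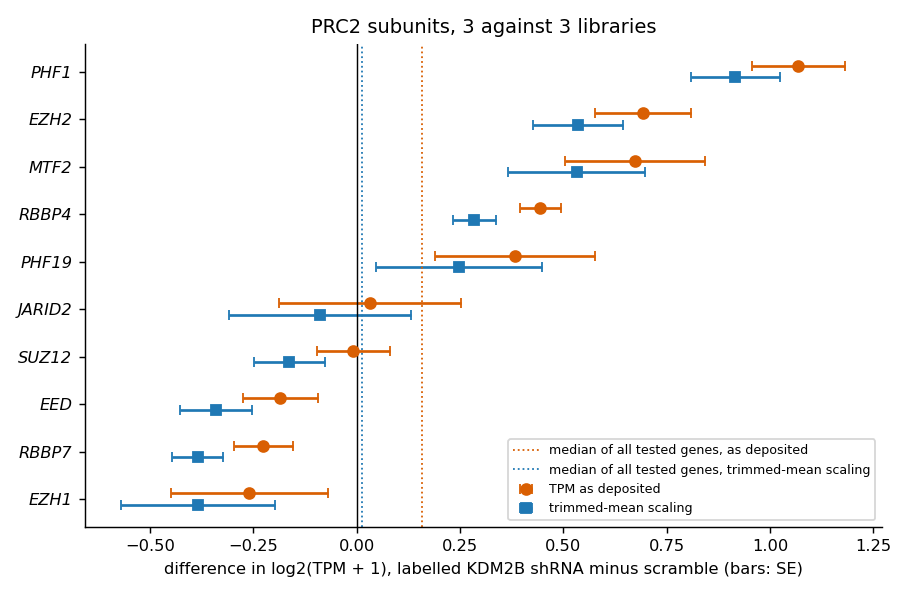
Difference in log2(TPM + 1) between the libraries labelled KDM2B shRNA and scramble for the 10 PRC2 genes, from limma, with SE as bars. Circles use TPM as deposited and squares trimmed-mean scaling, and dotted lines mark the median of all tested genes under each (0.16 and 0.01). PHF1 has the highest difference, 1.07, and EZH1, RBBP7 and EED lie lowest under both scalings.

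Among the accessory subunits PHF1 changed most. PHF1, a Polycomb-like protein whose Tudor domain binds methylated lysine 36 of histone H3, was at 14.09, 16.07 and 14.08 TPM across the scramble libraries, against 36.04, 29.89 and 30.35 TPM across those labelled KDM2B shRNA. Each labelled library held more PHF1 than any scramble library, and the mean ratio was 2.18. The difference was 1.07 ± 0.11 in log2(TPM + 1) (SE, limma adjusted p = 0.000265) and 0.92 ± 0.11 with trimmed-mean scaling (limma adjusted p = 0.000482).

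MTF2, the Polycomb-like protein that brings PRC2 to unmethylated CpG islands, was at 5.75, 7.21 and 4.78 TPM across the scramble libraries, against 10.65, 10.24 and 8.93 TPM across those labelled KDM2B shRNA. The groups did not overlap, and the difference was 0.67 ± 0.17 in log2(TPM + 1) (SE, limma adjusted p = 0.0127). Untreated JuB2, at 8.08 TPM, lay above all scramble libraries and below the labelled ones. PHF19, the remaining Polycomb-like protein, was at 4.08, 5.76 and 5.03 TPM across the scramble libraries, against 5.4, 6.84 and 8.15 TPM across those labelled KDM2B shRNA. One labelled library fell inside the scramble range, and the difference of 0.38 ± 0.19 did not pass (SE, limma adjusted p = 0.138).

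Together the 3 Polycomb-like transcripts summed to 23.9, 29.0 and 23.9 TPM for scramble, against 52.1, 47.0 and 47.4 TPM for the libraries labelled KDM2B shRNA. The sum was 27.5 TPM in untreated JuB2 and 27.1 TPM in the library labelled EC, both inside the scramble range. PHF1 made up 57.7 ± 2.07% of the sum in scramble and 65.6 ± 3.11% in the labelled libraries (SD, n = 3 each). Its share was 52.6% for untreated JuB2 and 71.9% for the library labelled EC. These sums and shares were chosen after the values of the genes were seen and were not tested.

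JARID2 guides the other form of PRC2 to chromatin and binds nucleosomes that carry the ubiquitin mark of Polycomb repressive complex 1. It was at 3.31, 3.62 and 2.84 TPM across the scramble libraries, against 2.41, 4.29 and 3.53 TPM across those labelled KDM2B shRNA. The labelled libraries held both the lowest and the highest value of the 6, and the difference was 0.03 ± 0.22 in log2(TPM + 1) (SE, limma adjusted p = 0.917). Trimmed-mean scaling gave -0.090 (limma adjusted p = 0.759). Its SE was the largest among the 10 genes.

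**Figure D3:**
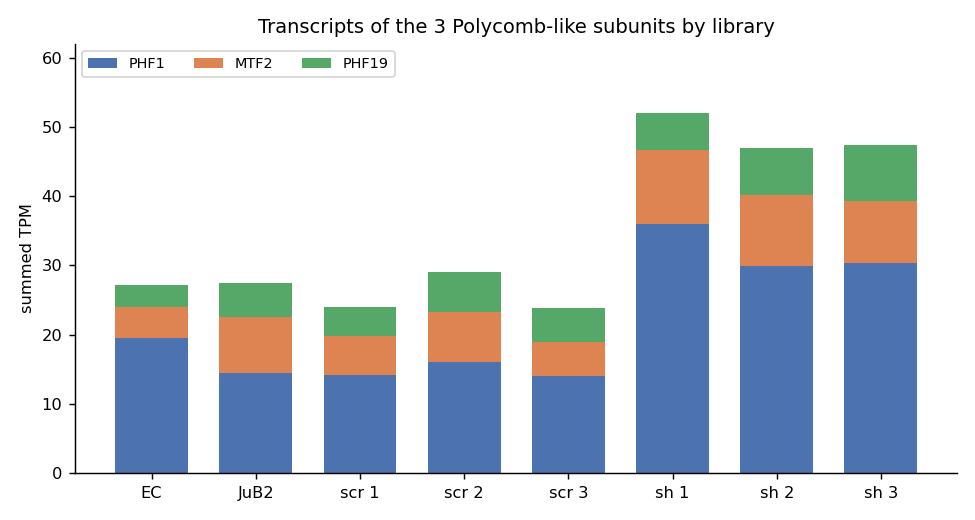
Stacked TPM of PHF1, MTF2 and PHF19 in each of the 8 libraries (EC, labelled EC; JuB2, untreated; scr, scramble; sh, labelled KDM2B shRNA). The sums are 23.9 to 29.0 TPM in the first 5 libraries and 47.0 to 52.1 TPM in the last 3, and PHF1 is the largest part of each bar.

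**Figure D4:**
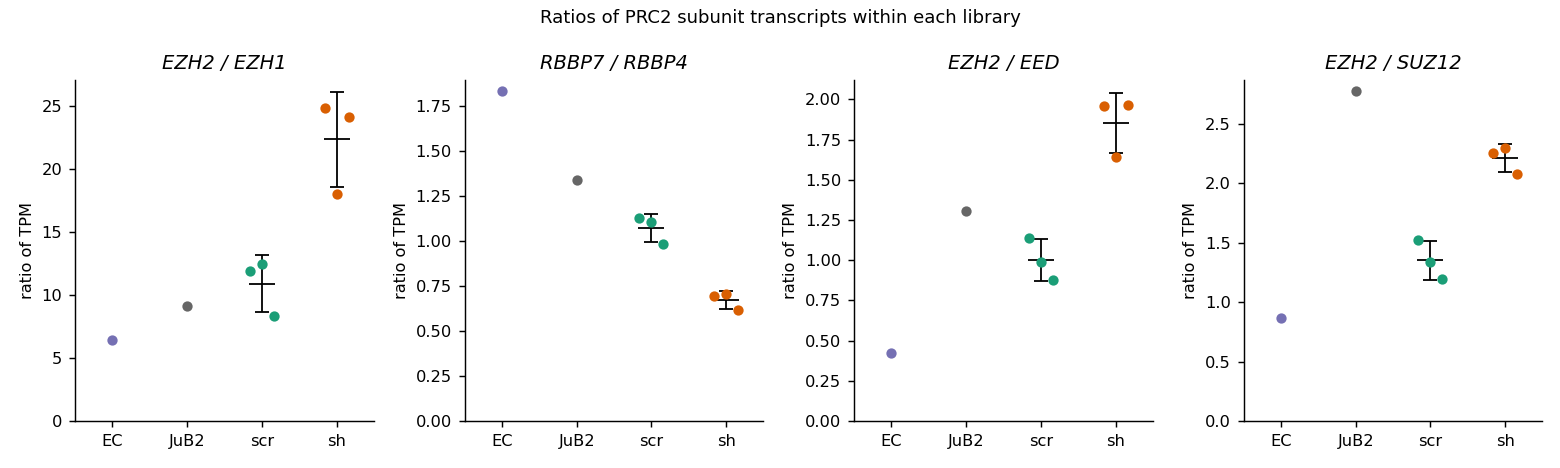
Ratios of TPM within each library for EZH2 to EZH1, RBBP7 to RBBP4, EZH2 to EED and EZH2 to SUZ12, on linear axes from 0; points are libraries and bars the mean and SD of 3. The labelled KDM2B shRNA libraries lie apart from scramble in all 4 panels, and the library labelled EC has the lowest ratio of EZH2 to each of EZH1, EED and SUZ12 and the highest ratio of RBBP7 to RBBP4.

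The library labelled EC differs from untreated JuB2 in cell source, with 1 library each and so no test. EZH2 was at 14.79 TPM in it and at 46.9 TPM in untreated JuB2, 3.17 times higher, or -1.60 for the library labelled EC on the log2(TPM + 1) scale. Among the 10 genes EZH2 alone was at least 2-fold apart on that scale, where 43.5% of 12194 genes were; 27.6% of the 12194 were lower by that fold in the library labelled EC. EZH2 was also at least 2-fold lower there than in each scramble library. EZH1 followed at 2.29 against 5.13 TPM, a difference of -0.90, and passed the same fold when nuclear genes were rescaled without the mitochondrially encoded ones or when the pseudocount was 0.1. The proliferation genes MCM2, PCNA and CCNE1 stood at 21.14, 130.27 and 5.69 TPM in the library labelled EC. In untreated JuB2 they stood at 94.7, 587.39 and 43.46 TPM. Others of the list lay closer, such as MKI67 at 15.56 against 15.21 TPM and TOP2A at 37.31 against 48.88 TPM. Of 26 listed proliferation and E2F genes 12 were at least 2-fold lower and 1 at least 2-fold higher in the library labelled EC. The median difference of the list was -0.82 on the log2 scale. The part of proliferation or of the fibroblast and muscle genes in the lower EZH2 was not tested. In such bulk samples fewer cells of a type and less RNA per cell cannot be told apart.

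The other members were less than 2-fold apart. The library labelled EC lay below all 4 JuB2 control libraries (untreated and scramble) for EZH1, EZH2, EED, RBBP4, MTF2 and PHF19, above them for RBBP7 and PHF1, and within them for SUZ12 and JARID2. Over 12731 genes it lay below all 4 for 50.2% and above all 4 for 29.6%, so 6 below and 2 above is near the background. EED was 35.01 TPM against 35.98 TPM in untreated JuB2, and RBBP7 was 212.01 against 194.97 TPM. The ratio of EZH2 to EED was 0.422 in the library labelled EC and 0.875 or more in every JuB2 library. The median difference over the 10 genes was -0.18 on the log2 scale, beside -0.33 over all genes compared.

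Untreated JuB2, the parent line, was set beside scramble. With 1 untreated library an effect of the scramble hairpin cannot be told apart from variation between libraries. No member was at least 2-fold from every scramble library, where 1.51% of 11945 genes were. SUZ12 came closest: it was at 16.88 TPM in untreated JuB2 and at 31.32, 30.63 and 28.79 TPM in scramble, which is 1.79 times more in the scramble mean. Of the genes compared, 6.92% lay at least as far from the scramble mean. SUZ12 was also high in the libraries labelled KDM2B shRNA, at 28.32 to 32 TPM, so all 6 hairpin libraries lay above untreated JuB2 and above the 17.04 TPM of the library labelled EC. With 1 untreated library this difference has no test. For 7 of the 10 genes the untreated library lay outside the scramble range, as it did for 63.3% of all genes compared. It lay above it for EZH1, RBBP7 and MTF2 and below it for EED, SUZ12, RBBP4 and JARID2. EZH2, at 46.9 TPM, PHF1, at 14.47 TPM, and PHF19, at 4.97 TPM, lay within it. For EZH2, RBBP4, MTF2 and PHF1 the labelled libraries stood above untreated JuB2 as well as scramble. For EED and JARID2 untreated JuB2 lay within the range of the labelled libraries.

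Other PRC2-associated genes were measured for a pair of the 6 listed. EPOP, an accessory subunit of the Polycomb-like form, rose from 4.17 ± 0.98 to 10.6 ± 3.27 TPM (SD, n = 3 each), which is 1.13 ± 0.26 in log2(TPM + 1) (SE, limma adjusted p = 0.00847). AEBP2, the partner of JARID2, was at 22.7 ± 3.48 and 26.7 ± 1.86 TPM and did not pass (limma adjusted p = 0.166). Among the 2 demethylases that remove the mark of PRC2, KDM6A rose from 9.62 ± 0.737 to 19.2 ± 0.892 TPM (limma adjusted p = 0.000459), and KDM6B was at 31.3 ± 1.20 and 29.0 ± 2.28 TPM (limma adjusted p = 0.369). With trimmed-mean scaling KDM6B passed as lower (limma adjusted p = 0.0348). In the library labelled EC both were low, KDM6A at 3.18 TPM and KDM6B at 7.07 TPM against 9 and 41.97 TPM in untreated JuB2.

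Genes of the BAP1 complex or of lysine 36 methylation rose in 7 of 11 tested cases, fell in 1 and did not pass in 3. Their median was 0.59 on the log2 scale, beside 0.16 for all tested genes, of which 33.3% were higher and 17.6% lower. The list joins the BAP1 deubiquitinase complex, which removes the ubiquitin mark of Polycomb repressive complex 1, and methyltransferases of lysine 36 of histone H3, a mark that hinders PRC2. ASXL1, a partner of BAP1, rose from 44.6 ± 2.49 to 87.7 ± 3.06 TPM and HCFC1, another, from 29.9 ± 1.04 to 67.7 ± 6.35 TPM (SD, n = 3 each). SETD2, the enzyme of lysine 36 trimethylation, rose from 11.8 ± 0.617 to 31.9 ± 2.26 TPM, by 1.36 ± 0.10 in log2(TPM + 1) (SE, limma adjusted p = 7.06e-05). OGT, a glycosyltransferase of the same complex, fell from 49.9 ± 3.66 to 37.6 ± 2.81 TPM. NSD1, NSD2 and NSD3, which also methylate lysine 36, did not pass (limma adjusted p = 0.189, 0.0978 and 0.826). Trimmed-mean scaling gave 7 higher and 2 lower, NSD2 being the added fall (limma adjusted p = 0.00723), against 24.0% and 24.5% of all tested genes.

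RBBP4 and RBBP7 also serve the NuRD, SIN3, CAF-1 and NURF complexes. The list used here joined HAT1, which belongs to none of them, to genes of these complexes. Of its 19 tested genes 11 rose, 2 fell and 6 did not pass, with a median of 0.28. Among all tested genes 33.3% were higher and 17.6% lower. Trimmed-mean scaling gave 8 higher and 3 lower, against 24.0% and 24.5%. CHD4 and GATAD2A of NuRD rose from 30.5 ± 0.97 to 54.9 ± 1.95 and from 54.3 ± 2.73 to 105 ± 7.86 TPM (SD, n = 3 each). SIN3B, a scaffold of the SIN3 deacetylase complexes, rose from 20.0 ± 1.48 to 41.2 ± 3.504 TPM. The falls were SUDS3, of the SIN3 complex, and HAT1, the histone acetyltransferase that works with RBBP7.

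Proliferation genes and targets of E2F, the factor family known to drive EZH2 in human and mouse cells, rose in 13 of 26 tested members and fell in 1, with 12 not passing. Among all tested genes 33.3% were higher and 17.6% lower. The median of the list was 0.24 on the log2 scale, beside 0.16 for all tested genes. Trimmed-mean scaling gave 12 higher and 5 lower, against 24.0% and 24.5%. UHRF1, a reader of hemimethylated DNA, rose from 57.5 ± 2.31 to 128 ± 5.98 TPM and RRM2, a subunit of ribonucleotide reductase, from 338 ± 15.3 to 591 ± 32.5 TPM (SD, n = 3 each). MCM6, of the replicative helicase, fell from 227 ± 5.26 to 134 ± 6.22 TPM. The summed TPM of the list was 2549 to 2701 in scramble and 3376 to 3602 in the libraries labelled KDM2B shRNA. That sum gives most weight to abundant genes such as PCNA and RRM2 and does not describe a typical gene of the list. The part of the list in the higher EZH2 was not tested.

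Developmental regulators that PRC2 is known to repress in embryonic stem cells were mostly silent or low. Of 45 listed genes 37 had a row, 9 were listed at 0 in all 8 libraries and 17 passed the filter. Among these 17, 3 rose, 0 fell and 14 did not pass, with a median of 0.45 on the log2 scale. The share that rose was below the 33.3% of all tested genes, while the median lay above their 0.16. Several of the 17 were at only a few TPM, where SEs were large. DLX5, at 1.02 ± 0.37, and PAX3, at -0.53 ± 0.27, did not pass (SE, limma adjusted p = 0.0527 and 0.145). Trimmed-mean scaling gave 3 higher and 2 lower, against 24.0% and 24.5% of all tested genes. CDKN2A, a cell cycle inhibitor and a classical Polycomb target, was abundant in all JuB2 libraries and rose from 314 ± 10.2 to 430 ± 47.3 TPM (SD, n = 3 each, limma adjusted p = 0.00267). GATA2 rose from 5.39 ± 1.30 to 14.2 ± 0.707 TPM and TBX3 from 1.29 ± 0.215 to 4.29 ± 0.857 TPM, both transcription factors of early development.

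**Figure D5:**
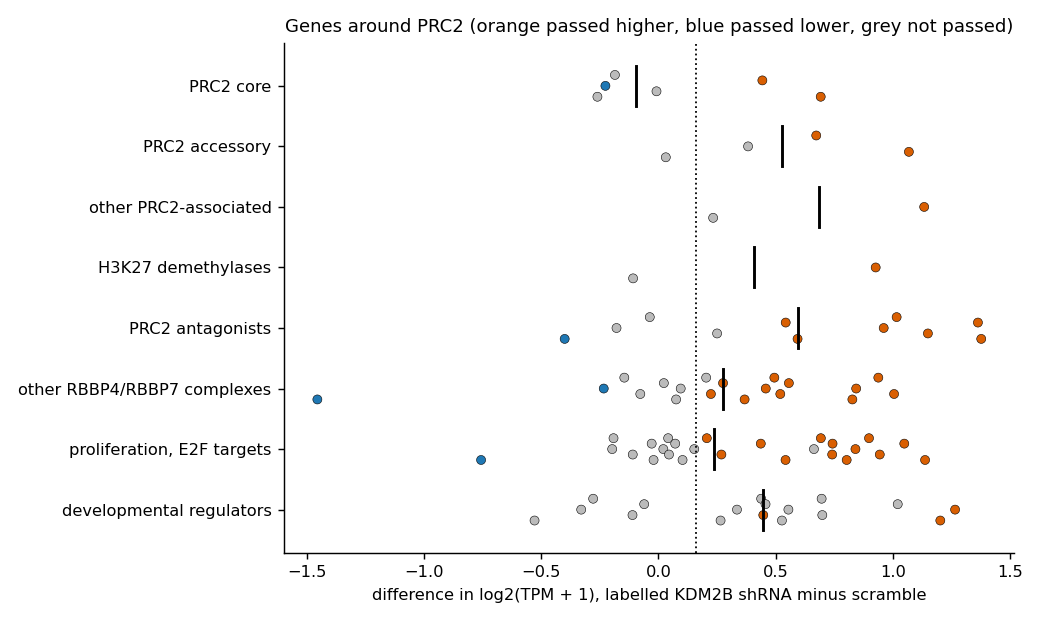
Difference in log2(TPM + 1), libraries labelled KDM2B shRNA minus scramble, of each tested gene (points) by list, with vertical bars at list medians and a dotted line at the median of all tested genes (0.16). Orange points passed as higher, blue as lower and grey did not pass. The core subunits spread to both sides (median -0.10). The list that joins genes of the BAP1 complex with histone methyltransferases has a median of 0.59.

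The genes whose profile over the 8 libraries was most like that of a core subunit were named among 8725 genes with a mean of at least 5 TPM, by Pearson r of log2(TPM + 1), as a description over libraries that share groups. For EZH2 they were FAM118B, EGFL7 and TMEM64, with r of 0.996, 0.996 and 0.995. For SUZ12 they were HNRNPM, PLEKHA8 and TK1, with r of 0.977, 0.969 and 0.967, and for EED they included GNG2 and ZNF582, with r of 0.972 and 0.937. GNG2 was listed at 0 in 4 of the libraries. HNRNPM showed the same step as SUZ12, at 159.35 and 161.94 TPM in the library labelled EC and untreated JuB2 and at 245.56 to 274.71 TPM in the 6 hairpin libraries.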

How the data were processed

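RNA of 8 libraries was sequenced after NEBNext Ultra preparation (per the labels). The authors deposited TPM per gene. Per the submitters' processing notes the tools include STAR and RSEM and the build is CanFam3.1; their roles and versions are not given. Without read depth no counting interval was computed. No sample column was left out (0 unused).

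Groups came from the labels. TPM values of the 3 scramble and 3 labelled KDM2B shRNA libraries were fitted with limma 3.58.1 in R 4.3.3 on log2(TPM + 1), with an intensity trend, for the 11485 genes that reached 1 TPM in 3 or more of these 6 libraries, with Benjamini-Hochberg adjustment over all of them (threshold 0.05). The pseudocount shrinks fold changes of low genes. Ratios of paralogs were compared by an exact permutation test (scipy 1.17.1). Single libraries were compared by a 2-fold rule (1 on the log2 scale) among genes reaching 1 TPM in a library compared. Alternatives were 3 other scalings (the trimmed mean dropped 30% of log ratios and 5% of levels at each end), other filters and pseudocounts, no trend, all 8 libraries, a replicate block and leaving out each library. The fit was checked on simulated data.

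Named genes were the 10 members, KDM2B, up to 3 passing genes of smallest p per list, and the 3 genes of most similar profile to EZH2, EED and SUZ12, of which 1 is not reported here; other genes named were chosen after their values were seen. Members and lists were chosen with earlier results of these data known. A planned search of promoters for E2F-type sites and printing of subunit sequences were not done, since no sequence was used here. Figures were drawn with matplotlib 3.10.9.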

Additional observations from a re-analysis of the deposited data

How the results depend on the processing

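EZH2, RBBP4, MTF2 and PHF1 stayed higher and past the threshold in all 16 alternatives run, and the number of members called higher was 4 in each. The number called lower was 1 as reported, 2 with trimmed-mean scaling, quantile normalization or rescaling without the mitochondrially encoded genes, each of which added EED, 0 with no intensity trend, and 0 to 1 when each library was left out. The SUZ12 difference turned to 0.017 without scramble library 1, 0.0014 without scramble library 2 and 0.034 without labelled library 2, within a range of -0.051 to 0.034 over the left-out libraries, and the JARID2 difference to -0.090, -0.19 and -0.047 under the 3 scalings and to between -0.11 and 0.21 over the left-out libraries. A mean filter of 5 TPM left EZH1 and JARID2 untested. The count of all genes called ran from 4961 to 5883. Same-numbered libraries did not deviate together from their group means (correlations across genes of 0.034, 0.012 and -0.046). Correlations this low cannot settle whether the numbers pair libraries that were grown or prepared together. The replicate block gave 4 members higher, 1 lower and 5448 genes called. In the comparison with the library labelled EC, 2 members passed 2-fold instead of 1 when rescaled without the mitochondrially encoded genes or with a pseudocount of 0.1. Each group compared by a test has 3 libraries, and the read depth behind the TPM values is unknown.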
